A study of Mus musculus with 8 samples.

Results

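Mitochondrial biogenesis depends on a small set of nuclear genes, and 10 of them were followed here across 2 mouse kidney epithelial cell lines and a drug. The set was chosen by name: the coactivators Ppargc1a, Ppargc1b and Pprc1, the DNA-binding factors Esrra, Nrf1 and Gabpa, and the mitochondrial transcription genes Tfam, Tfb1m, Tfb2m and Polrmt. All 10 were found by Entrez gene ID among 18631 genes, and 9 of the 10 were among the 10731 genes that were tested. Ppargc1b was the one left out, because its mean over the 8 libraries was below 1 FPKM (fragments normalised to transcript length and library depth).

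Most mitochondrial proteins are encoded in the nucleus, whereas a small genome inside the organelle encodes a few subunits of the respiratory chain. PGC-1 coactivators do not bind DNA themselves. They dock on factors such as ERR alpha, NRF-1 and GABP, which switch on genes of respiration and of mitochondrial gene expression. Among the targets are TFAM, TFB2M and the RNA polymerase POLRMT, which together start transcription of the mitochondrial genome. In kidney tubules, PGC-1 alpha is known for supporting the oxidative metabolism that drives salt transport.

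By its title, the study asks about the altered metabolism of autosomal dominant polycystic kidney disease, in which Pkd1 or Pkd2 is mutated. Poly(A) RNA was sequenced from a Pkd1+/- line (heterozygous) and a Pkd1-/- line (null). Treatment lasted 6 h, with the solvent DMSO or with THZ1 at 50 nM, which makes 4 groups of 2 libraries. THZ1 is a covalent inhibitor of CDK7, a kinase of the general transcription machinery. All 4 groups grew in the same medium, which contained insulin, interferon gamma and triiodothyronine (T3), the thyroid hormone. Each genotype is represented by 1 line, so loss of Pkd1 and any other difference between the lines cannot be told apart. The labels do not state whether replicates were separate cultures, and p-values then describe only the spread between these libraries, which may be technical.

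Replicates had Pearson's r of 0.9973 to 0.9983 across genes, and the steps of low FPKM values gave an estimated depth of 17.6 to 18.4 M (mega) fragments per library. For heterozygous cells the Pkd1 level was 4.94 ± 0.51 FPKM in DMSO and 3.95 ± 0.35 in THZ1, and for null cells 1.505 ± 0.262 and 1.22 ± 0.01 (mean ± SD, n = 2 here and for every FPKM mean below). The null DMSO replicate 1 and null THZ1 replicate 2 libraries held more genes just above 0 than the others (3378 and 3129, against 2230 to 2586). Leaving both out, an alternative chosen after seeing the data, changed the call of 1 member, Nrf1, in the THZ1 responses and their difference, and the calls of Polrmt between the lines in DMSO (adjusted p = 0.339) and of Gabpa (0.174) and Tfb2m (0.151) between the lines in THZ1. Of 10 kidney epithelial markers, 7 had a mean of at least 1 FPKM in every group (Cdh16, Pax2, Pax8 and 4 keratins), whereas Cdh1, Epcam and Cldn7 stayed at or below 0.63 FPKM in every library. The summed level of those 10 genes was 1240 to 1349 FPKM in heterozygous DMSO libraries, 1292 to 1331 in heterozygous THZ1, 1145 to 1163 in null DMSO and 1098 to 1100.0 in null THZ1. That sum joins opposite moves between the lines in DMSO. Krt8, Krt18, Krt19, Pax2 and Pax8 were lower in null libraries (Krt18 at 170.65 and 163.50, against 292.52 and 318.37 FPKM). Krt7 and Cdh16 were higher (Krt7 at 396.09 and 405.75, against 277.06 and 306.18). Of 11 fibroblast markers, 4 (Vim, Acta2, Col1a1 and Postn) had a mean of at least 1 FPKM, and these were higher in null libraries. The sum of all 11 was 521 to 545 FPKM in heterozygous DMSO and 551 to 552 in heterozygous THZ1. In null cells it was 879 to 897 in DMSO and 987 to 999 in THZ1. Vim made up most of the fibroblast sum, with 496.27 and 522.56 FPKM in heterozygous DMSO and 753.87 and 737.84 in null DMSO. Acta2 was at 7.74 and 7.20 FPKM in heterozygous DMSO and 109.77 and 107.28 in null DMSO. The other fibroblast markers, among them Col1a2, Col3a1, Dcn and Pdgfra, stayed at or below 0.87 FPKM in every library, though none was at 0 in all. The part of these marker differences in the results was not tested. Endothelial markers (0 of 7 at 1 FPKM) summed to 0.30 to 1.04 FPKM, and leukocyte markers (2 of 7) to 7.95 to 12.8 FPKM, with Adgre1 and Cd3e at 0 in every library.

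The 4 mitochondrial transcription genes gave the widest contrast within the set, with opposite responses to THZ1 in null cells, so their promoters are shown. Each line below is the 250 bases before the RefSeq start site (build GRCm38.p6), written 5′ to 3′ along the gene, which lies on the minus strand in all 4 cases. The windows are chr17:3557756-3558005 for Tfb1m, chr1:179546277-179546526 for Tfb2m, chr10:71238045-71238294 for Tfam and chr10:79746582-79746831 for Polrmt. Capitals mark a match on either strand to the NRF-1 core TGCGCA or to the ETS element CCGGAAG, which GABP and other ETS factors bind.
Tfb1m: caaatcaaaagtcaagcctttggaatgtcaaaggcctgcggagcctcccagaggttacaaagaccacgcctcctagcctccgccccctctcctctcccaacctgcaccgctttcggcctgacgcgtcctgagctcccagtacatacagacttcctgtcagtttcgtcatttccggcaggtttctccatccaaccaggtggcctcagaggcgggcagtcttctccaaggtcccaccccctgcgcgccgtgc
Tfb2m: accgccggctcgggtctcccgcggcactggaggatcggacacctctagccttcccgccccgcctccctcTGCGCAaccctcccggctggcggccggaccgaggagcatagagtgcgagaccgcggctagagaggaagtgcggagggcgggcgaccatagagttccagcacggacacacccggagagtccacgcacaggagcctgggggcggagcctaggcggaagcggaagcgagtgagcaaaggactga
Tfam: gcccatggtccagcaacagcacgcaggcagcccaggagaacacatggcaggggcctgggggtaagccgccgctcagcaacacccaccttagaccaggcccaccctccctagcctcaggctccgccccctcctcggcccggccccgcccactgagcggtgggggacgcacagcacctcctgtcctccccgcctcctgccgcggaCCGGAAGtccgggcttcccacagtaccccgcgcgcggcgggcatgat
Polrmt: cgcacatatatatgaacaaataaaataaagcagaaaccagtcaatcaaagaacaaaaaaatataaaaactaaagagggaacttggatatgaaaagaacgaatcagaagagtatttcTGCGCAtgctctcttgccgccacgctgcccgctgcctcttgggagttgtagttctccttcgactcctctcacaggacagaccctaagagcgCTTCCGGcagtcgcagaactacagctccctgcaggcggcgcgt
The NRF-1 core was found once before the start in Tfb2m, at -181 to -176, and once in Polrmt, at -134 to -129. The ETS letters were found in Tfam at -47 to -41 and in Polrmt at -43 to -37, in Polrmt on the opposite strand. Neither motif was found in this window of Tfb1m. The search took exact letters only, so variants of either motif were not counted.

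RefSeq promoter windows (250 bases before and 50 after the start) were available for all members but Ppargc1b. The ETS letters were present in 3 of the other 9 genes, Tfam, Polrmt and Gabpa, and in 8.86% of all 32851 promoters, or 18.85% of the promoters of tested genes. TGCGCA was present in Esrra, Tfb2m and Polrmt, against 7.76% of all promoters and 14.35% of those of tested genes. The full NRF-1 palindrome and the ERR element TCAAGGTCA were in none of the members' windows. They were in 0.97% and 0.42% of all promoters, and in 2.18% and 0.25% of those of tested genes. The core TGACG of the cyclic AMP response element was present in Ppargc1a and Tfb1m, against 20.81% of all promoters and 31.94% of those of tested genes. The YY1 motif was present in Gabpa, against 0.85% and 2.2%. Both strands were searched, and motifs were allowed to overlap. A match describes letters only, and says nothing of binding in these cells.

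In DMSO, null cells had lower levels of 7 of the 9 tested members than heterozygous cells and a higher level of 1, Gabpa. Tfam, the packaging protein and transcription activator of mitochondrial DNA, had the most negative difference on the log2(FPKM + 1) scale, with a null mean of 59.4% of the heterozygous FPKM. By the ratio of means the low Ppargc1a was lower still, at 42.6%. Over all tested genes, 41% were lower and 29% higher (70% in either direction), so calls were common in this comparison. The members' median difference was -0.34 on the log2(FPKM + 1) scale, beside -0.07 for all tested genes, and -0.20 with upper-quartile scaling. In 8 of the 9 members the libraries of the lines did not overlap (7 lower, 1 higher), against 84.5% of all tested genes (48.7% lower, 35.8% higher). Upper-quartile scaling, which sets the 75th percentile of the genes above 0 equal, turned the split of all calls from 3110 higher and 4398 lower to 4090 and 2717, and the members' calls to 2 higher and 4 lower. All tests are limma's, with p-values adjusted over all tested genes and a call at an adjusted p below 0.05.

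FPKM and each scaling tried here are relative within a library. A rise or fall under THZ1 is therefore a change of share in the library, and the amount of RNA per cell was not measured. THZ1 moved few members in heterozygous cells. Pprc1 and Tfb1m fell and none of the other 7 tested members was called, where 10.3% of all tested genes fell and 12.2% rose (22.4% in all). In null cells, 6 of the 9 fell and Tfb2m rose, where 51.1% of all tested genes fell and 24.6% rose (75.7% in all). The median of the members was 0.03 in heterozygous cells, beside 0.01 for all tested genes, and turned to -0.02 with libraries scaled to the same sum of FPKM. In null cells it was -0.53, beside -0.17, and -0.32 with median-of-ratios scaling. In null cells 7 of the 9 members had no overlap between the THZ1 and DMSO libraries, 6 lower and 1 higher, against 87.4% of tested genes (57.5% lower, 29.9% higher). In heterozygous cells 7 of 9 had none, 3 lower and 4 higher, against 65% (30.7% lower, 34.3% higher). The split of all calls in heterozygous cells, 1306 higher and 1100 lower, was 426 and 882 with upper-quartile scaling and 753 and 1491 with libraries scaled to the same sum of FPKM.

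The difference between the THZ1 responses of the lines, called the interaction here, was itself tested. It was called for 5 of the 9 tested members, Tfb1m, Polrmt, Esrra, Tfam and Pprc1, all with the more negative response in null cells. The background was 45.1% of tested genes called in that direction and 15.1% in the other (60.2% in all). The members' median was -0.35, beside -0.19 for all tested genes, and was -0.13 with median-of-ratios and -0.20 with upper-quartile scaling. Scaling each library by its median of ratios to the gene means moved the all-gene median by 0.20 for THZ1 in null cells and 0.21 for the interaction, from -0.17 to 0.03 in the first case. The split of all calls then changed from 2645 higher and 5479 lower to 4363 and 3942 for THZ1 in null cells, and from 1620 and 4843 to 3475 and 3126 for the interaction. Relative to the all-gene median, the THZ1 response in null cells was -1.20 for Tfb1m, -0.48 for Polrmt, -0.45 for Pprc1, -0.43 for Esrra, -0.35 for Tfam, -0.22 for Gabpa, 0.03 for Nrf1, 0.04 for Ppargc1a and 0.38 for Tfb2m. On this scale Nrf1 and Ppargc1a lay near the middle of the tested genes, and the 6 members that fell lay below it. The log2(FPKM + 1) scale understates changes of low genes, so the place of Ppargc1a is uncertain. Its null THZ1 mean was 80% of the null DMSO mean, with overlapping libraries.

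**Figure D1:**
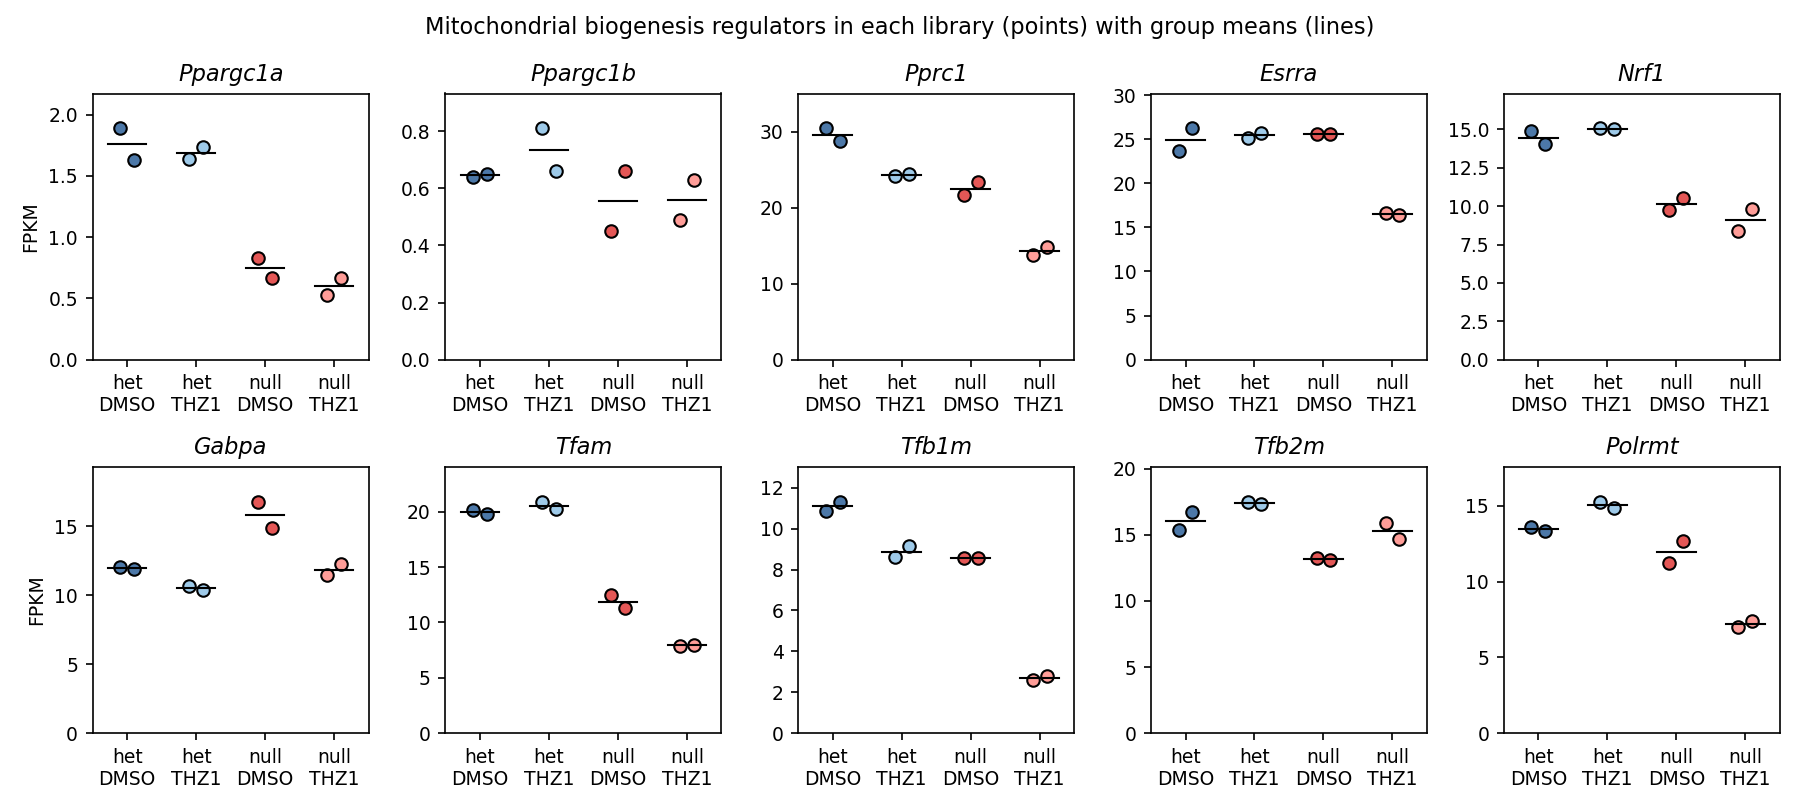
FPKM of the 10 members in each library (points) with the group means (lines), on linear axes that start at 0, for heterozygous (het) and null cells under DMSO or THZ1. Tfb1m drops to 2.60 and 2.80 FPKM in null THZ1 libraries, whereas Tfb2m stays between 13.06 and 17.49 FPKM in all 8.

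Ppargc1a encodes PGC-1 alpha, the coactivator best known for inducing mitochondrial biogenesis (gene ID 19017, chromosome 5). Its level was low in every library: 1.89 and 1.63 FPKM in heterozygous DMSO cells, 1.64 and 1.74 in heterozygous THZ1, 0.83 and 0.67 in null DMSO, and 0.53 and 0.67 in null THZ1. All 4 null libraries lay below all 4 heterozygous ones, and the drug groups overlapped within each line. Under DMSO the null mean was 42.6% of the heterozygous mean, a difference of -0.66 ± 0.10 (± SE here and below) on the log2(FPKM + 1) scale, which understates changes of low genes (limma adjusted p = 6.79e-05). THZ1 gave -0.04 ± 0.10 in heterozygous cells and -0.13 ± 0.10 in null cells, and neither passed (adjusted p = 0.827 and 0.257). The estimated depth places 60 to 222 fragments on this transcript per library.

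Ppargc1b encodes the related PGC-1 beta (gene ID 170826) and was lower still. It had 0.64 and 0.65 FPKM in heterozygous DMSO cells, 0.81 and 0.66 in heterozygous THZ1, 0.45 and 0.66 in null DMSO, and 0.49 and 0.63 in null THZ1. An estimated 29 to 54 fragments per library stood behind these values. The lines overlapped in DMSO, and no group stood clearly apart. Without the filter on low values, no comparison of Ppargc1b was called, with limma adjusted p between 0.170 and 1.00.

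Pprc1 encodes the third family member, PRC, which is known as a growth-responsive coactivator of NRF-1 (gene ID 226169, chromosome 19). It was the most abundant coactivator, at 30.44 and 28.74 FPKM in heterozygous DMSO cells, 24.19 and 24.42 in heterozygous THZ1, 21.65 and 23.32 in null DMSO, and 13.76 and 14.77 in null THZ1. No pair of groups overlapped. Null DMSO cells were lower by -0.38 ± 0.06 (adjusted p = 5.93e-05). Under THZ1 Pprc1 fell in both lines, with -0.27 ± 0.06 in heterozygous cells (adjusted p = 0.0067) and -0.62 ± 0.06 in null cells (adjusted p = 6.00e-07). The heterozygous call was lost without heterozygous DMSO replicate 1 (adjusted p = 0.0525) or heterozygous THZ1 replicate 1 (0.0527). The interaction was -0.35 ± 0.08 (adjusted p = 0.0026), but it was -0.13 with median-of-ratios scaling (adjusted p = 0.181) and -0.20 with upper-quartile scaling (0.141), neither called.

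Esrra encodes ERR alpha, the orphan nuclear receptor through which PGC-1 alpha acts on respiratory genes (gene ID 26379, chromosome 19). Its 8 values were 23.64 and 26.25 FPKM in heterozygous DMSO cells, 25.14 and 25.73 in heterozygous THZ1, 25.62 and 25.59 in null DMSO, and 16.63 and 16.39 in null THZ1. A single group stood apart: the null THZ1 libraries were low, and the other 3 groups overlapped. The difference between the lines was 0.04 ± 0.06 in DMSO (adjusted p = 0.554), though upper-quartile scaling gave 0.19 with a call (0.0368) and leaving out heterozygous DMSO replicate 1 gave -0.03, and THZ1 gave 0.03 ± 0.06 in heterozygous cells (adjusted p = 0.743), which scaling to the same sum of FPKM turned to -0.02. In null cells THZ1 gave -0.60 ± 0.06, a fall to 64.5% of the DMSO mean (adjusted p = 5.95e-07). The interaction was -0.63 ± 0.08 (adjusted p = 2.61e-05).

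Nrf1 encodes nuclear respiratory factor 1, a DNA-binding activator of respiratory and mitochondrial transcription genes (gene ID 18181, chromosome 6). It had 14.88 and 14.06 FPKM in heterozygous DMSO cells, 15.08 and 15.03 in heterozygous THZ1, 9.76 and 10.52 in null DMSO, and 8.41 and 9.81 in null THZ1. Every null library was below every heterozygous one. The difference in DMSO was -0.47 ± 0.07 (adjusted p = 7.59e-05), with a null mean of 70.1% of the heterozygous mean. The THZ1 response passed the threshold in neither line (0.05 ± 0.07 in heterozygous cells, adjusted p = 0.629, and -0.14 ± 0.07 in null cells, adjusted p = 0.0939), nor did the interaction (-0.20 ± 0.10, adjusted p = 0.118). Without null THZ1 replicate 2 both the null response (-0.24, adjusted p = 0.012) and the interaction (-0.30, adjusted p = 0.0203) were called, as they were without null DMSO replicate 1 as well (-0.29 and -0.35). Scaling to the same sum of FPKM also gave a called null response (-0.22, adjusted p = 0.0207). With median-of-ratios scaling the null response and the interaction turned to 0.07 and 0.02.

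Gabpa encodes the ETS-domain DNA-binding subunit of GABP, also called NRF-2 (gene ID 14390, chromosome 16). It was the single member called higher in null DMSO cells. The values were 12.04 and 11.93 FPKM in heterozygous DMSO cells, 10.67 and 10.39 in heterozygous THZ1, 16.77 and 14.88 in null DMSO, and 11.44 and 12.24 in null THZ1. The null DMSO libraries were the highest, and null THZ1 libraries spanned the heterozygous DMSO level. The line difference was 0.37 ± 0.07 (adjusted p = 0.000282). Under THZ1 Gabpa fell in null cells, with -0.39 ± 0.07 (adjusted p = 0.000164). In heterozygous cells the value was -0.17 ± 0.07 and did not pass (adjusted p = 0.0840), except with libraries scaled to the same sum (0.0442). The interaction of -0.22 ± 0.09 did not pass either (adjusted p = 0.0646), and it was 0.003 with median-of-ratios scaling. It passed without null DMSO replicate 2 (-0.30, adjusted p = 0.0247) or null THZ1 replicate 2 (-0.26, 0.0466), and with the same sum (0.0391). Under THZ1 the lines differed by 0.15 ± 0.07 (adjusted p = 0.0471), a call lost in 9 of 19 alternatives. It was lost without any 1 of heterozygous DMSO replicate 1 or 2 (adjusted p = 0.0522 and 0.0521), heterozygous THZ1 replicate 1 or 2 (0.0913 and 0.171) or null THZ1 replicate 2 (0.220).

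Gabpa overlaps Atp5j, a subunit gene of ATP synthase, by 967 bp on the opposite strand, and their starts lie 148 bp apart. Strand handling is not given in the sources used here, so fragments of the shared stretch cannot be told apart. Atp5j had a mean far above Gabpa in every group. Between the lines in DMSO it went the same way as Gabpa. It had 147.80 and 142.62 FPKM in heterozygous and 181.74 and 181.44 in null libraries, a difference of 0.32. Under THZ1 it moved the other way than Gabpa. In null cells it reached 253.04 and 232.98 FPKM, a rise of 0.42 (limma adjusted p = 2.81e-06), and in heterozygous cells the difference was 0.24. The part of the shared stretch in the Gabpa values was not tested. Esrra overlaps Trmt112 by 52 bp, and Trmt112 fell by -0.38 under THZ1 in null cells (adjusted p = 4.67e-05). Tfb1m overlaps Tiam2 by 148 bp, which fell by -0.60 in the same comparison, and Cldn20 by 660 bp, which stayed at or below 0.51 FPKM.

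Tfam (gene ID 21780, chromosome 10) had 20.12 and 19.82 FPKM in heterozygous DMSO cells, 20.90 and 20.20 in heterozygous THZ1, 12.45 and 11.27 in null DMSO, and 7.86 and 7.99 in null THZ1. The heterozygous libraries lay between 19.82 and 20.90 FPKM, and both null groups stood apart below them. In DMSO the difference between lines was -0.71 ± 0.06 (adjusted p = 3.56e-07), with 8.1% of tested genes more negative. THZ1 gave 0.04 ± 0.06 in heterozygous cells (adjusted p = 0.676), or -0.006 with libraries scaled to the same sum. In null cells it gave -0.53 ± 0.06, a fall to 66.8% of the DMSO mean (adjusted p = 4.63e-06). The interaction was -0.56 ± 0.09 (adjusted p = 0.000122). Under THZ1 the null mean was 38.6% of the heterozygous mean.

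TFB1M and TFB2M descend from rRNA methyltransferases. TFB1M is known chiefly as the enzyme that methylates the small-subunit rRNA of the mitochondrial ribosome, whereas TFB2M works with POLRMT to open promoters of the mitochondrial genome. Under THZ1 in null cells Tfb1m had the most negative difference of the 9 tested members and Tfb2m the most positive.

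Tfb1m (gene ID 224481, chromosome 17) had 10.87 and 11.32 FPKM in heterozygous DMSO cells, 8.62 and 9.14 in heterozygous THZ1, 8.55 and 8.56 in null DMSO, and 2.60 and 2.80 in null THZ1. The null THZ1 libraries were far below the rest. THZ1 reduced the null mean to 31.6% of its DMSO value, a difference of -1.37 ± 0.07 (limma adjusted p = 3.36e-09). Only 2.7% of tested genes had a more negative difference. In heterozygous cells it gave -0.29 ± 0.07, to 80% of the DMSO mean (adjusted p = 0.0109). That call was lost without heterozygous DMSO replicate 2 (adjusted p = 0.0509) or heterozygous THZ1 replicate 1 (0.107). The interaction of -1.08 ± 0.10 (adjusted p = 2.21e-06) was the most negative among the members and kept its call under all 18 alternatives. In DMSO the null line was lower by -0.34 ± 0.07 (adjusted p = 0.000696), which was not called with upper-quartile scaling (0.0660).

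Tfb2m (gene ID 15278, chromosome 1) moved the other way. Its libraries had 15.34 and 16.68 FPKM in heterozygous DMSO cells, 17.49 and 17.28 in heterozygous THZ1, 13.24 and 13.06 in null DMSO, and 15.90 and 14.71 in null THZ1. Within each line the THZ1 libraries were above the DMSO ones, with no overlap. The rise in null cells was 0.20 ± 0.06 (adjusted p = 0.0084), and 79.4% of tested genes had a lower value. It was not called without null THZ1 replicate 1 (adjusted p = 0.0747) or with libraries scaled to the same sum of FPKM (0.0836). In heterozygous cells the value was 0.11 ± 0.06 and did not pass (adjusted p = 0.198), nor did the interaction of 0.09 ± 0.09 (0.381), which became 0.31 with median-of-ratios scaling and was then called (0.0092). Null DMSO cells were below heterozygous DMSO cells by -0.26 ± 0.06 (adjusted p = 0.0018), again not with upper-quartile scaling (0.221).

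Polrmt encodes the single-subunit RNA polymerase of mitochondria (gene ID 216151, chromosome 10). It had 13.60 and 13.35 FPKM in heterozygous DMSO cells, 15.28 and 14.84 in heterozygous THZ1, 11.23 and 12.70 in null DMSO, and 7.02 and 7.42 in null THZ1. THZ1 libraries were higher than DMSO libraries in heterozygous cells and lower in null cells. The values were 0.15 ± 0.07 (adjusted p = 0.128, not called) and -0.66 ± 0.07 (adjusted p = 1.62e-06). The interaction of -0.81 ± 0.10 was called (adjusted p = 1.80e-05), and 10.7% of tested genes had a more negative one. In DMSO the null line was lower by -0.16 ± 0.07 (adjusted p = 0.0481), a call that 13 of 19 alternatives lost. Leaving out any 1 of the heterozygous libraries or null DMSO replicate 1 lost it, and the value without the last was -0.08 (adjusted p = 0.386). Upper-quartile scaling gave -0.02.

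**Figure D2:**
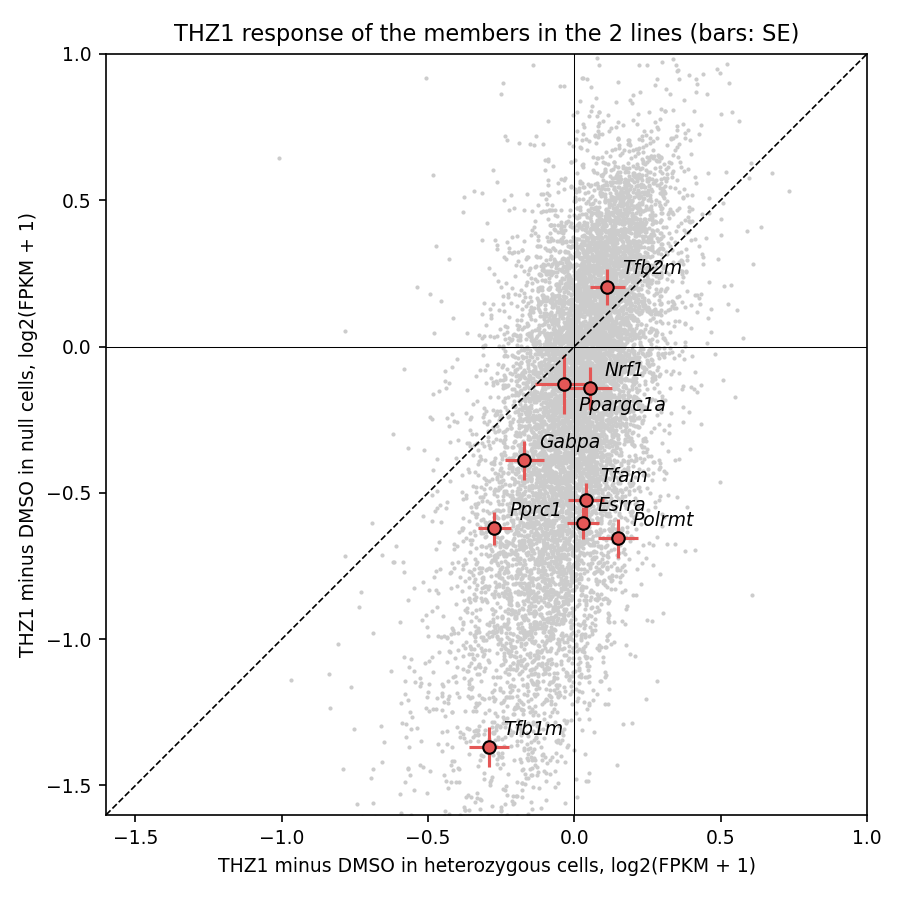
Response to THZ1 on the log2(FPKM + 1) scale in heterozygous cells (x axis) against null cells (y axis), for the 9 tested members (labelled points) over all tested genes in grey, of which 174 lie beyond the plotted range. Tfb1m lies lowest at -1.37 in null cells, and Tfb2m at 0.20 is the single member above 0 there. The dashed line marks equal responses, and bars are SEs.

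Ratios between members within a library do not depend on how libraries are scaled. The ratio of Tfb2m to Tfb1m was 1.41 and 1.47 in heterozygous DMSO libraries, 2.03 and 1.89 in heterozygous THZ1, 1.55 and 1.53 in null DMSO, and 6.12 and 5.25 in null THZ1. In each line the THZ1 libraries were higher, and the null THZ1 pair exceeded all others. Tfb2m to Polrmt stayed between 1.03 and 1.25 in 6 libraries and was 2.27 and 1.98 in null THZ1. Tfb2m to Tfam was 0.76 to 0.86 in the heterozygous libraries, 1.06 and 1.16 in null DMSO and 2.02 and 1.84 in null THZ1. Tfam to Polrmt was 1.48 and 1.49 in heterozygous DMSO, 1.37 and 1.36 in heterozygous THZ1, 1.11 and 0.89 in null DMSO and 1.12 and 1.08 in null THZ1. Of these 3 genes, whose proteins form the mitochondrial initiation complex, Tfb2m parted from the other two in null THZ1 cells, while the libraries of both null groups overlapped in Tfam to Polrmt. Gabpa to Nrf1 separated the lines, with 0.69 to 0.85 in heterozygous and 1.25 to 1.72 in null libraries. With 2 libraries against 2, an exact permutation test cannot go below a p of 0.333, so none is given.

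**Figure D3:**
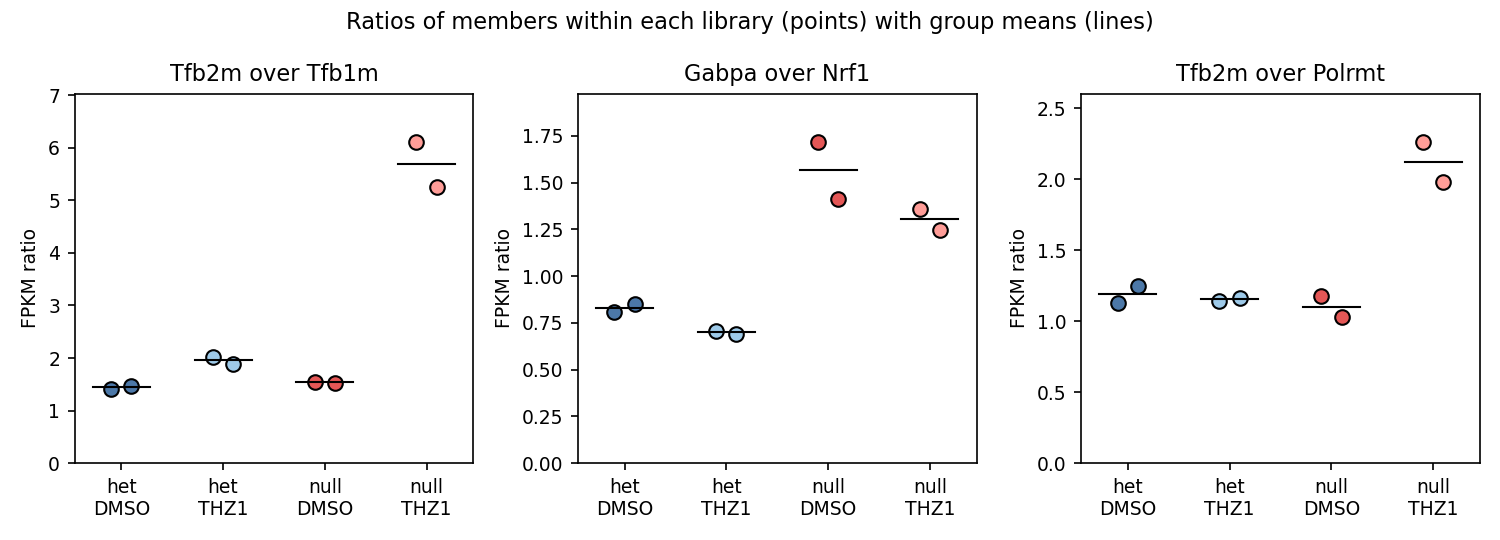
FPKM ratios within each library (points) and group means (lines) for Tfb2m over Tfb1m, Gabpa over Nrf1 and Tfb2m over Polrmt, on linear axes that start at 0. Tfb2m over Tfb1m reaches 6.12 and 5.25 in null THZ1 libraries, and Gabpa over Nrf1 is above 1 in all 4 null libraries and below 1 in all 4 heterozygous ones.

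Under THZ1 the lines differed in all 9 tested members, with 8 lower in null cells and Gabpa higher, where 58.1% of all tested genes were lower and 25.1% higher (83.2% in all). No member's libraries overlapped between the lines, against 92% of tested genes without overlap (63% lower, 29% higher). This comparison shares its libraries with those above and adds no independent evidence. The most negative differences were -1.42 for Tfb1m, -1.27 for Tfam and -0.97 for Polrmt. The median was -0.73, beside -0.28 for all tested genes, and -0.43 with median-of-ratios or upper-quartile scaling. Tfb2m had -0.17 ± 0.06 (limma adjusted p = 0.0175), which turned to 0.12 with median-of-ratios scaling and 0.13 with upper-quartile scaling. That call was also lost without heterozygous THZ1 replicate 1 (adjusted p = 0.0796) or 2 (0.0565) or null THZ1 replicate 2 (0.128). The median-of-ratios scaling moved the all-gene median by 0.28 here, and the split of all calls from 2689 higher and 6240 lower to 4347 and 4410, with 4178 and 4165 under upper-quartile scaling.

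FPKM is scaled per transcript length, so levels can be ordered between genes, but the annotation behind the lengths was not given. Reference transcripts of Nrf1 ran from 1879 to 3584 bp, so close ranks are not secure even where libraries do not overlap. In heterozygous DMSO cells the order ran from Pprc1 (29.6 ± 1.2 FPKM) and Esrra (24.9 ± 1.8) through Tfam (19.97 ± 0.21) and Tfb2m (16.01 ± 0.95) to Nrf1, Polrmt, Gabpa and Tfb1m (14.47, 13.47, 11.98 and 11.10), with Ppargc1a and Ppargc1b last. Libraries of neighbours in that order did not overlap. In null THZ1 cells Esrra led (16.5 ± 0.2), Tfb2m followed (15.3 ± 0.8, overlapping Pprc1 at 14.3 ± 0.7), and Tfam had fallen to 7.92 ± 0.09 and Tfb1m to 2.70 ± 0.14. Ppargc1a and Ppargc1b overlapped there.

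**Figure D4:**
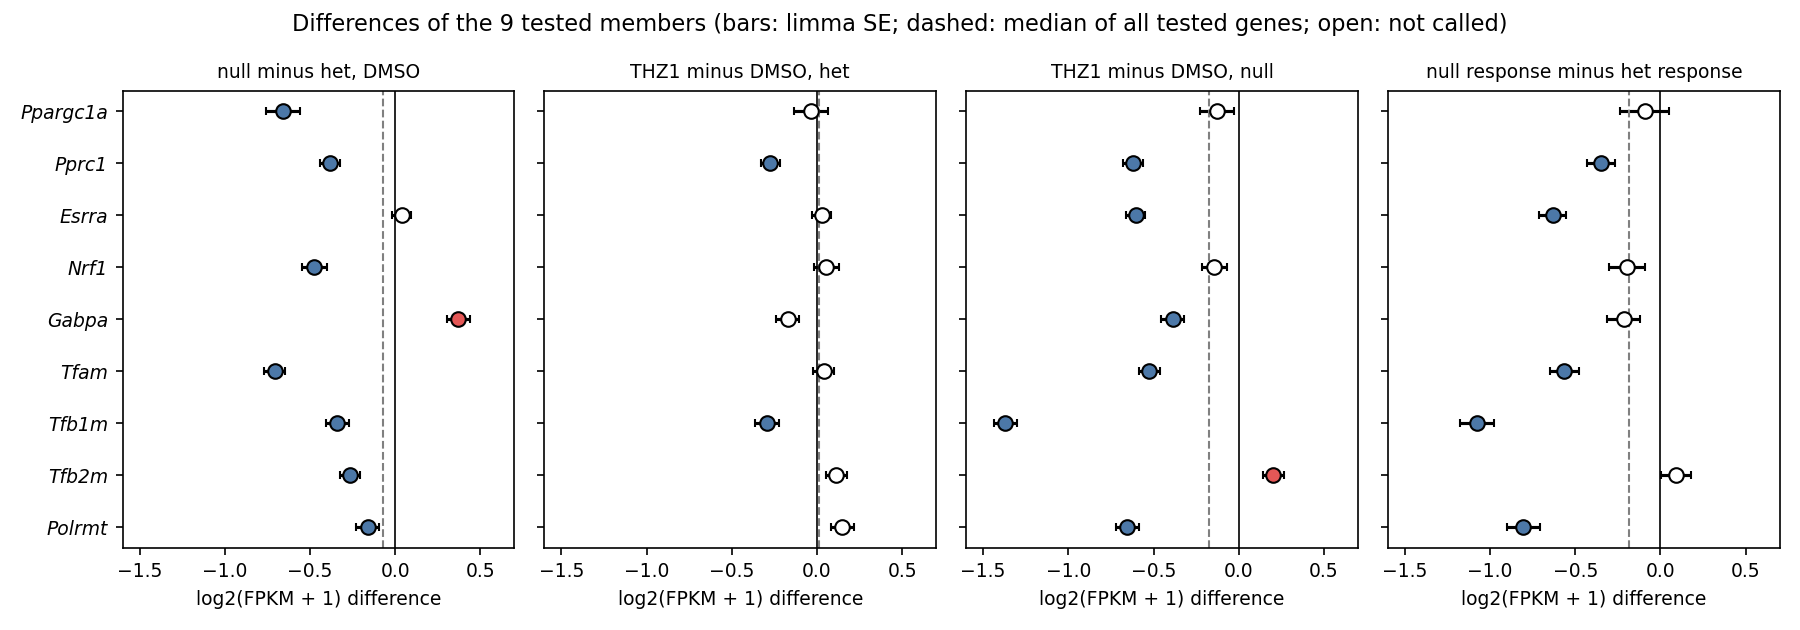
Differences on the log2(FPKM + 1) scale with SEs for the 9 tested members in 4 comparisons (filled points called, open points not called), with the median of all tested genes as a dashed line. Tfam at -0.71 is the most negative member between the lines in DMSO, and Tfb1m at -1.37 is the most negative under THZ1 in null cells.

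Other genes of the pathway were taken from lists chosen by function, and the gene named for a direction is the called one with the smallest adjusted p, not the one with the largest difference. For each comparison the shares of all tested genes are repeated beside the counts of these lists. Of the genes for mitochondrial DNA replication and maintenance, 14 of 17 fell and 1 rose under THZ1 in null cells (51.1% and 24.6% of all tested genes), with a median of -0.66 beside -0.17 for all tested genes. Twnk, the replicative helicase of mitochondrial DNA, fell from 11.2 ± 0.4 to 4.78 ± 0.20 FPKM, a difference of -1.08 ± 0.06 (limma adjusted p = 1.13e-08). Slc25a36, a pyrimidine nucleotide carrier, rose by 0.40 ± 0.07 (adjusted p = 0.000185). In heterozygous cells 2 of the 17 fell and 1 rose (10.3% and 12.2% of all). The interaction was called lower for 14 and higher for 1 (45.1% and 15.1% of all). In DMSO, 9 of 17 were lower in null cells and none higher (41% and 29% of all), with Twnk at -0.49 ± 0.06. The median of this list in DMSO was -0.27, and -0.14 with upper-quartile scaling. For all tested genes it was -0.07, and 0.07 with that scaling.

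Of the mitochondrial transcription and RNA processing genes that are not members, 16 of 24 fell and 4 rose in null cells, where 51.1% of all tested genes fell and 24.6% rose, with a median of -0.50. Fastk, a regulator of mitochondrial RNA, fell from 29.2 ± 1.9 to 13.5 ± 1.2 FPKM (-1.06 ± 0.07, adjusted p = 4.05e-08). Hsd17b10, a subunit of mitochondrial RNase P, rose by 0.30 ± 0.05 (adjusted p = 8.83e-05). In heterozygous cells 2 fell and 2 rose (10.3% and 12.2% of all), with Hsd17b10 among those that rose (0.23 ± 0.05, adjusted p = 0.0068, but 0.0833 without heterozygous THZ1 replicate 1). The interaction was called lower for 14 of 24, with Mterf4, which helps assemble the mitochondrial ribosome, at -1.12 ± 0.12, and higher for none (45.1% and 15.1% of all). Between the lines in DMSO, 12 were lower in null cells and 2 higher (41% and 29% of all), among them Mrpl12 (-0.65 ± 0.05) and Mtpap, the mitochondrial poly(A) polymerase (0.57 ± 0.07). The list median of -0.125 in DMSO turned to 0.03 with upper-quartile scaling.

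Textbook targets of NRF-1, GABP and ERR alpha, mostly subunits of the respiratory chain, rose in FPKM more often than they fell under the drug. In null cells 20 of 32 rose and 4 fell, where 24.6% of all tested genes rose and 51.1% fell. The median was 0.24, but 0.47 with median-of-ratios and 0.16 with same-sum scaling. In heterozygous cells 11 rose and none fell (12.2% and 10.3% of all), with a median of 0.13 beside 0.01 for all tested genes, and 0.08 with same-sum scaling. Cox7a2, a subunit of cytochrome c oxidase, rose in null cells from 75.0 ± 3.7 to 115.5 ± 1.2 FPKM (0.62 ± 0.04, adjusted p = 4.83e-08). Cpt1a, which commits fatty acids to mitochondrial oxidation, fell by -0.47 ± 0.06 (adjusted p = 6.02e-06). Ndufb6 of complex I rose in heterozygous cells (0.35 ± 0.05, adjusted p = 0.000836). In DMSO the same list was lower in null cells for 21 of 32 and higher for 6 (41% and 29% of all), with Cox5b at -0.74 ± 0.04 and Cpt1a at 0.54 ± 0.06. Its median in DMSO was -0.25, and -0.09 with upper-quartile scaling. The interaction was called higher for 14 and lower for 5 (15.1% and 45.1% of all).

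Partners and upstream regulators of the PGC-1 family had calls in both directions: 10 of 28 tested genes rose and 9 fell under THZ1 in null cells (24.6% and 51.1% of all). The median of 0.04 turned to -0.04 when libraries were scaled to the same sum and became 0.26 with median-of-ratios scaling. Gabpb2, a partner subunit of GABPA, fell from 8.46 ± 0.29 to 2.15 ± 0.07 FPKM in null cells (-1.59 ± 0.08, adjusted p = 2.49e-09), with an interaction of -1.23 ± 0.11 (adjusted p = 1.92e-06). Gabpb1, the other partner subunit on the list, is named outside the rule because its interaction had the opposite sign (0.25 ± 0.08, adjusted p = 0.0158). The Gabpb1 response to THZ1 was thus more positive in null cells than in heterozygous cells. In heterozygous cells it was 0.16 ± 0.05 and did not pass (adjusted p = 0.0566). Gabpb2 fell in heterozygous cells as well, by -0.36 ± 0.08 (adjusted p = 0.0072). The transcription factor gene Mef2a rose by 0.63 ± 0.05 in null cells (adjusted p = 1.21e-07). In heterozygous cells 3 rose and 2 fell (12.2% and 10.3% of all), among them the deacetylase gene Sirt1 (0.41 ± 0.07, adjusted p = 0.0021) and Hcfc1, a cofactor of GABP (-0.26 ± 0.05, adjusted p = 0.0071, but 0.0634 without heterozygous THZ1 replicate 1). In DMSO, 11 were higher and 14 lower in null cells (29% and 41% of all), and the median of -0.10 turned to 0.04 with upper-quartile scaling. The thyroid hormone receptor gene Thra was at 15.5 ± 0.4 FPKM in heterozygous and 6.50 ± 0.18 in null cells (-1.14 ± 0.06, adjusted p = 7.08e-09), and Mef2d differed by 0.62 ± 0.05 in the other direction.

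For protein import and chaperones, 18 of 30 fell and 5 rose under THZ1 in null cells (51.1% and 24.6% of all), with a median of -0.19 that turned to 0.03 with median-of-ratios scaling. Pmpca, a subunit of the mitochondrial processing peptidase, fell by -0.86 ± 0.04 and Tomm6 of the outer membrane translocase rose by 0.53 ± 0.04. The chaperone genes Hspd1 and Hspa9 differed in opposite directions between the lines in DMSO, with -0.69 ± 0.04 and 0.62 ± 0.04. For fusion, fission and mitophagy, 5 of 16 rose and 5 fell in null cells (24.6% and 51.1% of all), and the median of -0.06 turned to 0.16 with median-of-ratios scaling. The protease gene Oma1 fell by -1.17 ± 0.08, and the mitophagy receptor gene Bnip3l rose by 0.52 ± 0.05. None of the 13 protein genes of the mitochondrial genome had an FPKM value in the data, so they could not be followed here.

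**Figure D5:**
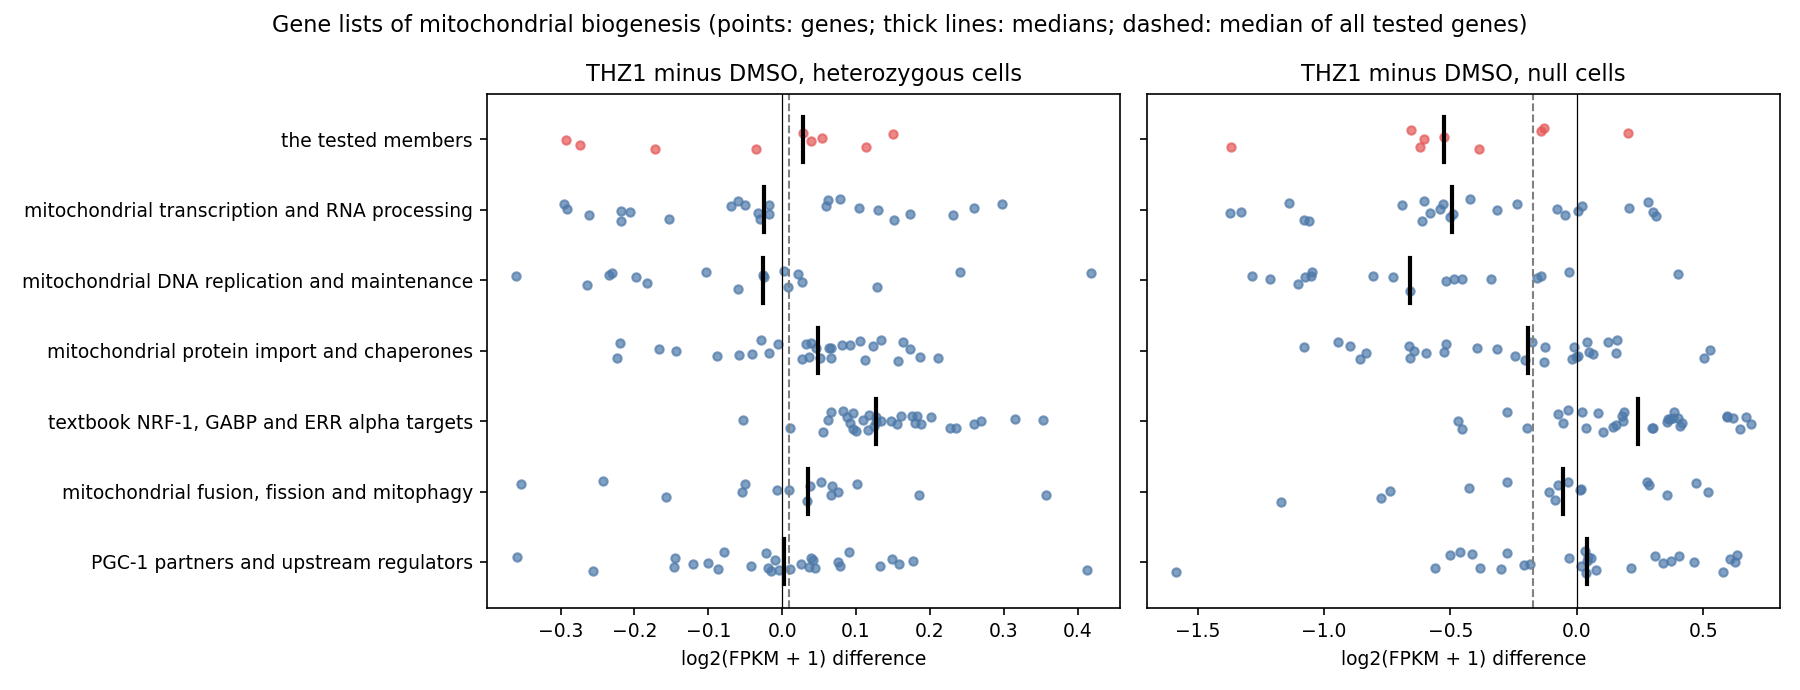
Differences on the log2(FPKM + 1) scale of the genes in each functional list, with list medians (thick lines) and the median of all tested genes (dashed), for THZ1 against DMSO in heterozygous and null cells. The panels have different x ranges. Under THZ1 in null cells the replication list has a median of -0.66 and the target list one of 0.24, beside -0.17 for all tested genes.

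For each tested member, the genes whose log2 values over the 8 libraries lay closest to it, after centring each gene on its mean, were sought among all tested genes. The closest fit was Creld2 to Tfb2m, with a root mean square difference of 0.018, followed by Ccdc18 to Pprc1 (0.023). Tfb1m had the most distant nearest gene, Terf2, at 0.056. Tfam was nearest to Zcchc8 (0.039), Polrmt to Smpd2 (0.050), Esrra to Zfp703 (0.041), Nrf1 to Atpaf1 (0.040), Gabpa to Hspa5 (0.044) and Ppargc1a to Kif15 (0.040). No member was among the 2 nearest genes of another, and with so many candidates nothing is concluded from that. The distance is not scaled to how far a gene moved, so it does not rank members by closeness of pattern.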

How the data were processed

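RNA levels were measured in 8 libraries, grouped from the labels into 4 groups of 2. The authors deposited 1 table per library with an FPKM value for each of 18631 genes. Bowtie2, DESeq2 and build mm10 are named without versions or roles (per the submitters' processing notes). Counting program, annotation and strand handling were not given in the sources used here. A RefSeq table of GRCm38.p6 gave symbols and coordinates and matched 18592 of 18631 IDs. The filter kept genes averaging 1 FPKM or more, and limma 3.58.1 (R 4.3.3, trend, 1 mean per group, 4 residual degrees of freedom) was fitted to log2(FPKM + 1). Tests are two-sided, with Benjamini-Hochberg adjustment over the 10731 tested genes. The fit was tested on simulated data. Depth was estimated from the steps of low FPKM values, since the files give no counts. Named genes are the members, Pkd1, genes overlapping a member, the 2 nearest genes in pattern, and, per list and comparison, the called gene with the smallest adjusted p in each direction. A selection of these is printed, with Gabpb1 added beside Gabpb2. One further epithelial marker was left out of the list and is not reported here. The members and lists were chosen with earlier results of these data known. In all, 19 alternatives were run (18 for the interaction), covering scaling, pseudocount, filter, trend, the groups fitted, a replicate block and left-out libraries. One, without a pair of libraries, was added after seeing the data.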

Additional observations from a re-analysis of the deposited data

Results flagged for a closer look

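The response to THZ1 differed between the lines, by limma's test of the difference itself, in 5 members. On the log2(FPKM + 1) scale the null response minus the heterozygous response was -1.08 for Tfb1m, -0.81 for Polrmt, -0.63 for Esrra, -0.56 for Tfam and -0.35 for Pprc1. Such a difference was called for 60.2% of all tested genes. The Pprc1 difference was not called with median-of-ratios (limma adjusted p = 0.181) or upper-quartile scaling (0.141). Polrmt, Esrra and Tfam had positive values in heterozygous cells that did not pass and fell in null cells, whereas Tfb1m and Pprc1 fell in both lines. With libraries scaled to the same sum of FPKM, the heterozygous values of Esrra and Tfam turned negative (-0.02 and -0.006). Groups of 2 libraries were too small for a check of single outlying libraries.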

How the results depend on the processing

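Over all alternatives, 783 of 841 values of the 9 tested members kept their direction and their side of the threshold, and 260 of 282 counts stayed within 1.5 times. Some alternatives cannot turn a direction, as they leave the difference unchanged and alter only its p. Examples are the fit without trend, the replicate block and leaving out a library of a group not compared. Ppargc1b was not tested, and its differences changed sign in 3 of the 5 comparisons under some alternatives. With 2 libraries per group and no counts in the files, small differences are the least secure, and depth limits Ppargc1a and Ppargc1b. Where a value changed, the cause was not tested.

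Between the lines in DMSO, upper-quartile scaling called 2 members higher and 4 lower. For THZ1 in heterozygous cells, upper-quartile scaling called 1308 genes and no filter 1309, against 2406. Leaving out 1 library gave 797 to 2534 genes (797 without heterozygous THZ1 replicate 1, 1048 without heterozygous THZ1 replicate 2, 1153 without heterozygous DMSO replicate 1) and 0 to 2 members lower. For THZ1 in null cells, scaling to the same sum of FPKM called 0 members higher, and leaving out 1 library gave 0 to 1. For the interaction, median-of-ratios scaling called 1 member higher. Between the lines in THZ1, the number of members called higher was 0 with the same sum, with no filter, with the replicate block and without null DMSO replicate 1 and null THZ1 replicate 2 together, and 0 to 1 with 1 library left out.

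Directions that turned were those of values not called, except Tfb2m between the lines in THZ1 (0.1207 with median-of-ratios and 0.1261 with upper-quartile scaling). Median-of-ratios scaling turned Nrf1 under THZ1 in null cells (0.0657) and the interactions of Ppargc1a (7e-04), Nrf1 (0.0194) and Gabpa (0.0028). The same sum turned Esrra (-0.0165) and Tfam (-0.0057) under THZ1 in heterozygous cells. With 1 library left out, Esrra ranged from -0.0346 to 0.1107 between the lines in DMSO and from -0.0439 to 0.1014 under THZ1 in heterozygous cells. Ppargc1a ranged from -0.1037 to 0.0323 in the latter, and the Pkd1 interaction from -0.0196 to 0.1939.

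The labels share replicate numbers between groups but do not say that a number marks a shared culture or day. Deviations of same-numbered libraries correlated at 0.139 and 0.033 between the drug groups of the heterozygous and null lines, and at 0.047 and -0.007 between the lines in DMSO and THZ1. A replicate block called 7502, 2387, 8112, 6461 and 8920 genes in the 5 comparisons, against 7508, 2406, 8124, 6463 and 8929. Of the members' calls it changed Polrmt between the lines in DMSO (adjusted p = 0.0521) and Gabpa between the lines in THZ1 (0.0539).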
